A study of Mus musculus with 15 samples.

Results

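Lin28a, Lin28b, Hmga2, Igf2bp1, Igf2bp2, Igf2bp3 and Trim71 form a regulatory group around the let-7 microRNAs, and their transcripts were compared here among 5 mouse embryonic stem (ES) cell lines. The group comprises all probe sets annotated to 1 of these 7 genes and to no other gene on an Affymetrix whole-genome mouse array. The array carries several short probes for each transcript, summarised as 1 value per probe set. There were 19 such probe sets of 45101 on the array. They covered 6 of the 7 genes, since no probe set carried the symbol Igf2bp2 alone in the annotation used here. Probe sets with several symbols were left out, and Igf2bp2 was not analysed here. The low level of Lin28a in the line FpB6D2, seen in these same data, was the starting point for choosing the genes. Every comparison with FpB6D2 is therefore given below as a description, without a p-value, and these genes are tested only in comparisons among the other 4 lines.

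RNA from each line was hybridised to 3 arrays, 15 in all. FpB6D2 and FpB6CBA were parthenogenetic lines, made by activating oocytes without sperm after growing preantral follicles from prepubertal females in culture. FpB6D2 came from B6D2F1 hybrids (female C57BL6 crossed with male DBA2) and FpB6CBA from B6CBAF1 hybrids (female C57BL6 crossed with male CBA/Ca). OpB6D2 was a parthenogenetic line from a blastocyst of naturally ovulated B6D2F1 oocytes. R1 was a purchased fertilised line from a cross of 129S1/SvImJ with 129X1/SvJ, and NmB6D2 was a fertilised line from natural mating of female C57BL6 with male DBA2. The labels name no engineered allele and no treatment. Each kind of origin with its strain was represented by a single line, so the line, its strain and its derivation cannot be told apart. The labels do not say that the 3 arrays of a line came from separate cultures, so the p-values measure only the spread between these arrays, which may be technical. The presence of feeder cells was not given in the sources used here.

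Levels are log2 intensities as deposited, and a difference of 1 corresponds to 2-fold. Where a gene had several probe sets, the one with the highest average intensity stood for it. Genes entered the tests when they reached the median of all values on the arrays, 3.864, on at least 3 arrays, which 12813 of 18193 genes did. A difference was called when limma, fitted over all genes and all 15 arrays, gave a Benjamini-Hochberg adjusted p under 0.05 and the difference was at least 2-fold. Of the 19 probe sets, 17 passed the filter, against 24524 of the 45101 on the array, and 5 of the 7 genes were tested. The ES cell identity of the lines was checked with 3 pluripotency factors. Pou5f1, Sox2 and Nanog had line means of 11.38 to 12.02, 10.96 to 11.26 and 9.81 to 11.39, so all 5 lines carried high levels of each. Over the tested genes the array medians lay between 6.63 and 6.79. Across these genes the correlation between arrays was 0.993 to 0.998 within a line and 0.910 to 0.978 between lines.

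let-7 microRNAs are short RNAs that accumulate as cells differentiate and repress transcripts with matching sites. Lin28a and its paralogue Lin28b are RNA-binding proteins of undifferentiated cells that bind the let-7 precursor and block its maturation. Lin28a also recruits terminal uridylyl transferases, which tag the precursor with uridines for decay by the exonuclease Dis3l2. The other genes of the group are classical let-7 targets: Hmga2 encodes a chromatin-bending protein of embryonic tissues, the Igf2bp genes encode mRNA-binding proteins, and Trim71 encodes a let-7-repressed regulator of embryonic mRNAs whose nematode homologue, lin-41, was found through let-7. In mouse ES cells Lin28a is expressed, while mature let-7 is kept low. The arrays measured polyadenylated transcripts, and let-7 itself was not measured.

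The sequences through which the pathway works are shown here because target recognition rests on the seed of the microRNA and Lin28 recognition on a short motif of its precursor. They were taken from RefSeq for the build GRCm38.p6. Capitals mark the seed, bases 2 to 8 counted from the 5′ end of the mature microRNA:
mmu-let-7a-5p: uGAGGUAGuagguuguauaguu
mmu-let-7b-5p: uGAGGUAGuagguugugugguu
mmu-let-7c-5p: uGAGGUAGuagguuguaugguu
mmu-let-7d-5p: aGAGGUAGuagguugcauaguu
mmu-let-7e-5p: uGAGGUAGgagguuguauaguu
mmu-let-7f-5p: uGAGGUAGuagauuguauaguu
mmu-let-7g-5p: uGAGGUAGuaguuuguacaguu
mmu-let-7i-5p: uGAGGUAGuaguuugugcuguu
mmu-miR-98-5p: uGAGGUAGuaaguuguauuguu

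These 9 share 1 seed and so form 1 seed group. Of the 11 family names in the table, 10 had the seed GAGGUAG, among them mmu-let-7k, and mmu-let-7j had GAGGUAU.

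Lin28 proteins hold the precursor through zinc knuckles that recognise the motif GGAG in the terminal loop. Of the 14 let-7 hairpins in the table, the 12 in which both mature arms could be placed were searched for it. The search was on the RNA strand, between the 2 arms. In Mirlet7a-2 the 5′ arm was placed by the let-7a-5p sequence listed for Mirlet7a-1. Among these 12, 9 held GGAG in the loop and 3 (Mirlet7b, Mirlet7c-2 and Mir98) did not. Over all miRNA hairpins with both arms annotated, 52 of 644 loops held it (8.07%). A match describes the letters only, and the absence of one says nothing about binding by Lin28. A pair of hairpins with the motif, in capitals, and a pair without it are given as examples:
Mirlet7g (chr9:106178840-106178927, plus strand): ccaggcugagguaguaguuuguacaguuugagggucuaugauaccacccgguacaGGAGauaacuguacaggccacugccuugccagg
Mirlet7a-1 (chr13:48538179-48538272, minus strand): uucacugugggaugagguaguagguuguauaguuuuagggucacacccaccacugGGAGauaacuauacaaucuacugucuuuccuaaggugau
Mirlet7b (chr15:85707319-85707403, plus strand): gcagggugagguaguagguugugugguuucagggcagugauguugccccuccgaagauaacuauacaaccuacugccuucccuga
Mirlet7c-2 (chr15:85706603-85706697, plus strand): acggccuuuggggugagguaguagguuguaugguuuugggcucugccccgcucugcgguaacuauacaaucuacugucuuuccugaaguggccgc

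Lin28a (chromosome 4) differed among all 5 lines. Its level was 7.24, 7.19 and 6.80 on the arrays of FpB6D2, 8.42, 8.40 and 8.59 in FpB6CBA, 9.60, 9.55 and 9.50 in OpB6D2, 10.28, 10.38 and 10.26 in R1, and 9.85, 9.92 and 9.83 in NmB6D2. No array of one line overlapped with those of another, and the order from the highest was R1, NmB6D2, OpB6D2, FpB6CBA and FpB6D2. Both follicle-culture lines were below the other 3.

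Among the lines that did not enter the choice of genes, Lin28a was lower in FpB6CBA (8.47 ± 0.106) than in NmB6D2 (9.87 ± 0.045, SD, n = 3 arrays each), a log2 difference of -1.40 ± 0.0961 (SE), or 2.63-fold, with limma adjusted p = 6.3e-08. FpB6CBA was also lower than OpB6D2 (9.55 ± 0.0479), by a log2 difference of -1.08 (limma adjusted p = 3.1e-07), and lower than R1 (10.30 ± 0.0654), by -1.83 (limma adjusted p = 6.8e-10). The remaining 3 pairs differed by less than 2-fold. The difference was -0.32 for OpB6D2 minus NmB6D2 (limma adjusted p = 0.013), -0.76 for OpB6D2 minus R1 (limma adjusted p = 1.1e-05) and 0.44 for R1 minus NmB6D2 (limma adjusted p = 0.0012). Lin28a therefore passed the adjusted p in all 6 tested pairs and the 2-fold minimum in 3, each of them with FpB6CBA. The adjusted p alone was passed by 6370 to 9017 of 12813 genes in each pair of lines, so passing it was common on these arrays.

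FpB6D2 averaged 7.08 ± 0.239 (SD, n = 3). Its log2 difference was -1.39 ± 0.0961 (SE) from FpB6CBA and -3.22 ± 0.0961 from R1, the line with the highest level. These values are a description of the gap that led to the choice of the genes.

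The second Lin28a probe set, 1421749_at, placed the lines in another order. It read 5.73, 5.76 and 5.58 in FpB6D2, 7.49, 7.87 and 7.92 in FpB6CBA, 6.31, 6.45 and 6.12 in OpB6D2, 8.72, 8.72 and 8.96 in R1, and 7.03, 7.03 and 6.99 in NmB6D2. R1 was again the highest and FpB6D2 again the lowest, but FpB6CBA lay above NmB6D2 and OpB6D2. On this probe set FpB6CBA exceeded OpB6D2 by 1.47 ± 0.114 (SE, limma adjusted p over 24524 probe sets = 9.1e-08) and NmB6D2 by 0.74 (limma adjusted p = 0.00012). The 2 probe sets thus gave opposite signs for FpB6CBA against both lines, and the direction of Lin28a there depends on the probe set. They gave 1 sign for FpB6CBA against R1, where 1421749_at differed by -1.04 (limma adjusted p = 1.7e-06). For R1 minus NmB6D2 this probe set showed 1.78 (limma adjusted p = 9.4e-09) and for OpB6D2 minus R1 it showed -2.51 (limma adjusted p = 3.2e-10), both larger than on the first. The mean of the 2 probe sets differed by 0.20 for FpB6CBA minus OpB6D2 and by -0.33 for FpB6CBA minus NmB6D2, neither of them called, while OpB6D2 minus R1 (-1.63) and R1 minus NmB6D2 (1.11) passed 2-fold.

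The hybridisation control probe sets, which report RNA added before hybridisation, were on average higher in both follicle-culture lines, with means of 9.74 in FpB6D2 and 9.93 in FpB6CBA, against 9.29 in OpB6D2, 9.23 in R1 and 9.34 in NmB6D2. The arrays of FpB6CBA (9.43 to 10.2) and NmB6D2 (9.22 to 9.51) overlapped. The poly-A controls, RNA added before labelling, averaged 8.35 in FpB6D2 and 8.94 in FpB6CBA, against 8.04 in OpB6D2, 7.96 in R1 and 7.88 in NmB6D2. Their part in the Lin28a levels was not tested. When each array was centred on its median or the arrays were quantile normalised, the calls of Lin28a did not change. The deposited values were already quantile-normalised, so these settings could change little. They do not test the part of the controls.

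Lin28b (chromosome 10), the paralogue better known from differentiating and tumour cells, had 1 probe set, and it read between 2.35 and 2.74 on the 15 arrays. All of these values were under the filter value of 3.864. Lin28b was therefore not detectable above that value in any line, the line with the lowest Lin28a included, and it entered no test.

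**Figure D1:**
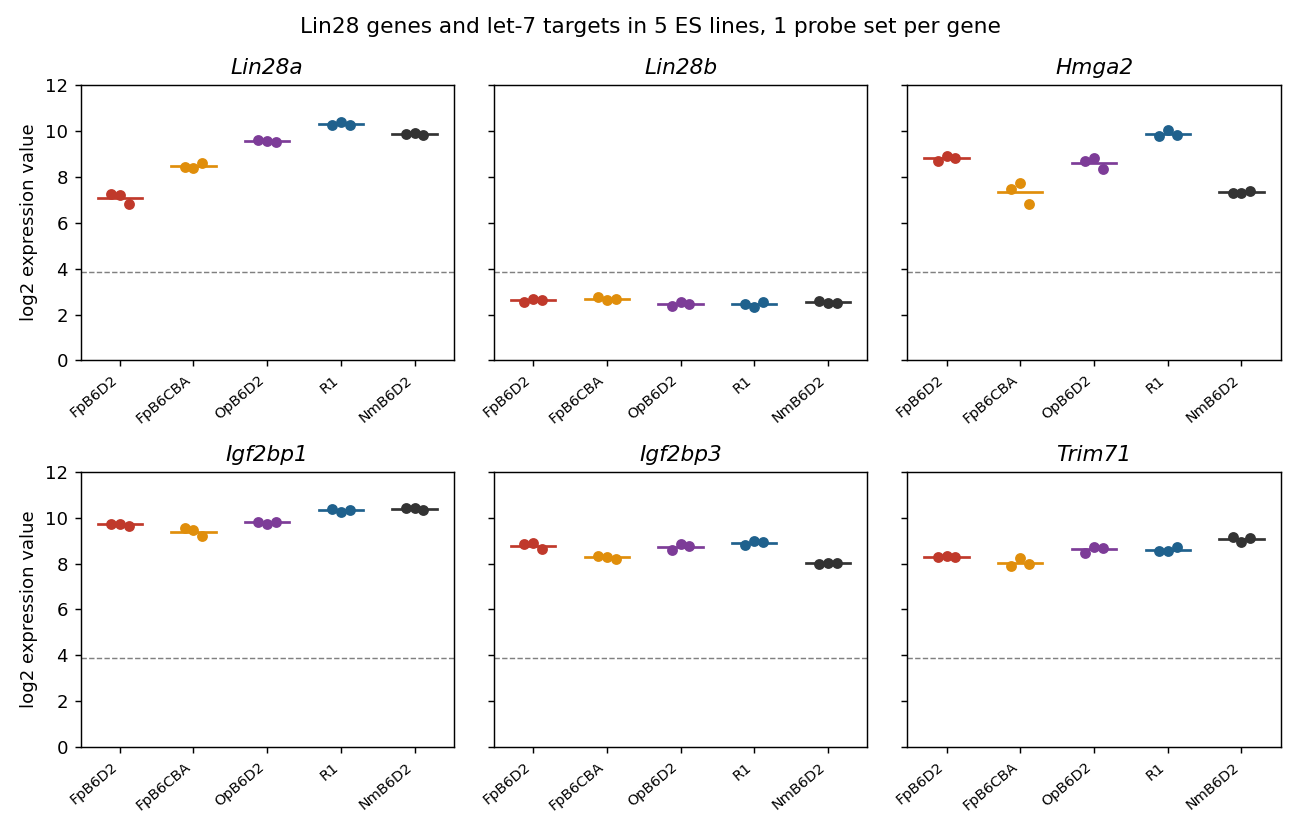
Log2 intensity (vertical axis) of Lin28a, Lin28b, Hmga2, Igf2bp1, Igf2bp3 and Trim71 on each array (points) of FpB6D2, FpB6CBA, OpB6D2, R1 and NmB6D2, with the mean of each line as a bar and the filter value of 3.864 as a dashed line. Lin28a falls on separate levels in the 5 lines, Hmga2 is highest in R1 and lies near 7.3 in both FpB6CBA and NmB6D2, and all Lin28b points are under the dashed line.

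Hmga2 (chromosome 10) was the target with the widest spread among the lines, and its order differed from that of Lin28a. It read 8.68, 8.90 and 8.82 in FpB6D2, 7.48, 7.73 and 6.83 in FpB6CBA, 8.69, 8.84 and 8.32 in OpB6D2, 9.80, 10.03 and 9.81 in R1, and 7.30, 7.28 and 7.39 in NmB6D2. R1 stood above every other line, FpB6D2 and OpB6D2 overlapped in the middle, and FpB6CBA and NmB6D2 overlapped at the bottom.

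Hmga2 was called in 5 of the 6 tested pairs. The level in R1 (9.88 ± 0.132) was 5.88-fold that in NmB6D2 (7.32 ± 0.0563, SD, n = 3 arrays each), a log2 difference of 2.56 ± 0.182 (SE, limma adjusted p = 2.3e-08). The level in OpB6D2 (8.62 ± 0.266) was above NmB6D2 by 1.30 (limma adjusted p = 4.1e-05) and differed from R1 by -1.26 (limma adjusted p = 3.6e-05). FpB6CBA (7.35 ± 0.464) was below OpB6D2, with a difference of -1.27 (limma adjusted p = 3.1e-05), and below R1, with -2.53 (limma adjusted p = 1.7e-08). FpB6CBA minus NmB6D2 was 0.02 ± 0.182 (SE, limma adjusted p = 0.93). In FpB6D2, where Lin28a was lowest, Hmga2 averaged 8.80 ± 0.115 (SD, n = 3). That was 1.48 ± 0.182 (SE) above NmB6D2, 1.45 above FpB6CBA and 0.18 above OpB6D2, with overlapping arrays in the last pair, and the difference from R1 was -1.08.

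Of the 3 Hmga2 probe sets that passed the filter, 1450780_s_at gave the same order of the 5 lines as the first. The probe set 1450781_at read 4.47 ± 0.261 in FpB6CBA and 5.56 ± 0.0464 in NmB6D2 (SD, n = 3 each), a difference of -1.09 (limma adjusted p = 2e-05), where the first found 0.02. On it FpB6D2 differed by -1.10 from OpB6D2, where the first gave 0.18. All 3 had Hmga2 higher in R1 and OpB6D2 than in NmB6D2, by 2.56 to 2.96 and 1.30 to 1.74, and lower in FpB6CBA than in R1. FpB6D2 was above NmB6D2 on all 3, by 0.64 to 1.66, and its difference from R1 was -2.32 to -0.98. The fourth probe set did not pass the filter, and with it included in the mean of all probe sets OpB6D2 minus R1 was -0.94, short of 2-fold. With this mean FpB6D2 minus NmB6D2 was 0.95.

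Markers of fibroblasts, the cells on which ES cells are often grown, also differed among the lines. The list held 30 genes, of which 28 were tested. Between R1 and NmB6D2, 18 were higher and none lower (Timp3 2.76, Col5a1 2.72 and Col3a1 2.65 on the log2 scale), with a median difference of 1.41 against -0.04 over all genes tested. In this pair 12.9% of all genes were called. For OpB6D2 minus NmB6D2, 8 were higher and 0 lower, against 5.84% of all genes called. For FpB6CBA minus NmB6D2, where Hmga2 differed by 0.02, 5 were higher and 0 lower, against 4.2%. In FpB6D2 6 were past the threshold above NmB6D2 and 0 below, against 10.7%. Against R1 the list was mixed. OpB6D2 minus R1 had 4 higher and 8 lower (10.2% of all genes called), and FpB6CBA minus R1 had 3 higher and 12 lower (18.2%). Thy1 and S100a4 were among the higher in both. FpB6D2 had 3 past the threshold above R1 and 15 below (13.3%). The summed linear level of the list was 11210 to 11780 in FpB6D2, 11030 to 13370 in FpB6CBA, 13310 to 16830 in OpB6D2, 22630 to 23470 in R1 and 8096 to 8868 in NmB6D2. Fap and Lum, which mark fibroblasts, were under the filter value in every line. In FpB6CBA and in OpB6D2 the array with the lowest mean of the list, 6.90 and 7.07, also had the lowest Hmga2, 6.83 and 8.32. The other lines did not show this. In R1 the array with the lowest mean of the list, 7.74, had the highest Hmga2, 10.03. In FpB6D2 and in NmB6D2 the lowest mean of the list and the lowest Hmga2 fell on different arrays. The mean of the list was 6.99 in FpB6D2 and 7.08 in FpB6CBA, while Hmga2 was 1.45 higher in FpB6D2. The 12 pluripotency markers had list means of 10.55 in FpB6D2, 9.71 in FpB6CBA, 10.32 in OpB6D2, 10.49 in R1 and 9.38 in NmB6D2. This mean was thus lowest in the lines with the lowest Hmga2, but not every marker followed it. Utf1 was highest in these lines, at 11.37 in FpB6CBA and 11.50 in NmB6D2, against 9.93 in R1. Dppa5a was lowest in R1 (13.25). Zfp42 was lower in OpB6D2 (8.53) than in NmB6D2 (8.69), and Tcl1 lower in OpB6D2 (7.85) than in FpB6CBA (8.21). The part of either list in the Hmga2 differences was not tested. In RNA from whole cultures, fewer cells of a type and less RNA per cell cannot be told apart.

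**Figure D2:**
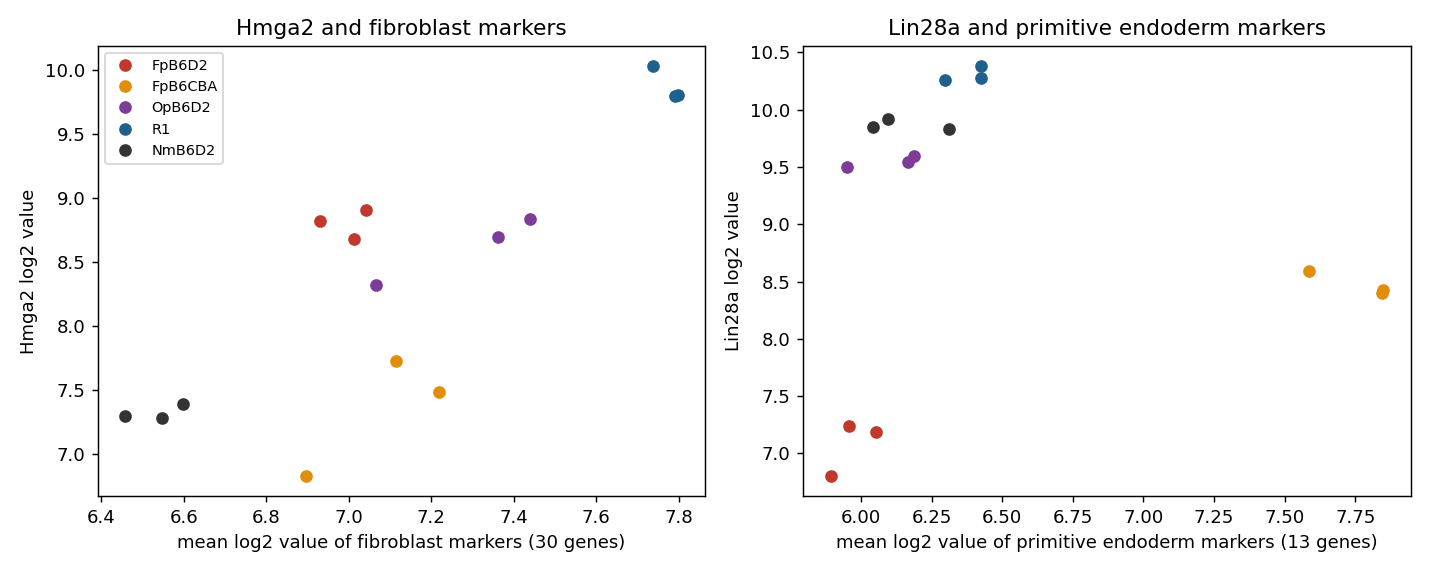
Left, Hmga2 (vertical axis, log2 intensity) against the mean log2 level of 30 fibroblast markers on each of the 15 arrays; right, Lin28a against the mean of 13 primitive endoderm markers, coloured by line in both panels. R1 is highest on both axes on the left, and FpB6CBA stands apart to the right in the second panel at a Lin28a level of 8.40 to 8.59.

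Markers of primitive endoderm, the extraembryonic layer that ES cultures can give rise to, were high in FpB6CBA. Of 13 genes, 11 were higher and 0 lower in FpB6CBA than in NmB6D2 (Lama1 by 2.46, Sox17 by 2.03, Foxa2 by 1.99 and Dab2 by 1.98). In this pair 4.2% of all genes were called. For FpB6CBA minus OpB6D2, 10 were higher and 0 lower, against 10%. For FpB6CBA minus R1, 8 were higher and 1 lower, against 18.2%. The lower one was Gata4, at 5.51 in FpB6CBA and 7.40 in R1. Sox17 was not called in that pair, at 6.31 in FpB6CBA and 6.21 in R1. The summed level of the list was 1577 to 1719 in FpB6D2, 5782 to 7086 in FpB6CBA, 1584 to 1936 in OpB6D2, 2013 to 2183 in R1 and 1943 to 2271 in NmB6D2. FpB6CBA thus carried these markers beside its lower reading on the first Lin28a probe set, whereas FpB6D2, with the lowest Lin28a, was in the range of OpB6D2. The part of these markers in the FpB6CBA values was not tested. Among 16 markers of primed epiblast, the state that follows the naive one in the embryo, 4 were lower and 1 higher in FpB6CBA than in NmB6D2. Over all genes 4.2% were called in that pair. In FpB6D2 6 of these markers were past the threshold below OpB6D2 and 0 above, led by Lefty2 (-1.63), Lef1 (-1.44), Dusp6 (-1.44) and Lefty1 (-1.21). Over all genes 3.75% were past it in that pair.

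Igf2bp1 (chromosome 11), which encodes an mRNA-binding protein that stabilises its targets, was higher in both fertilised lines on its first probe set, by less than 2-fold. It read 9.74, 9.73 and 9.64 in FpB6D2, 9.53, 9.44 and 9.20 in FpB6CBA, 9.82, 9.74 and 9.81 in OpB6D2, 10.36, 10.25 and 10.34 in R1, and 10.40, 10.42 and 10.33 in NmB6D2. Both fertilised lines lay above all 3 parthenogenetic lines without overlap. How many of all genes did so was not counted. R1 minus NmB6D2 was -0.07 ± 0.0741 (SE, limma adjusted p = 0.42), and the arrays of these lines overlapped.

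Igf2bp1 was below NmB6D2 in FpB6CBA, with a difference of -0.99 ± 0.0741 (SE, limma adjusted p = 1.3e-07), 1.99-fold and so just short of the 2-fold minimum. OpB6D2 differed from NmB6D2 by -0.60 (limma adjusted p = 1.3e-05) and from R1 by -0.53 (limma adjusted p = 2.8e-05). FpB6CBA differed from R1 by -0.92 (limma adjusted p = 5.5e-08) and from OpB6D2 by -0.40 (limma adjusted p = 0.00033). FpB6D2 differed by -0.68 from NmB6D2, -0.61 from R1 and -0.09 from OpB6D2, and was 0.31 above FpB6CBA. Igf2bp1 was thus called in 0 of the 6 tested pairs at 2-fold by limma and passed the adjusted p alone, which was common over all genes, in 5. For FpB6CBA minus NmB6D2 it passed 2-fold without replicate 1 of FpB6CBA (-1.06), without its replicate 2 (-1.02) or without replicate 4 of NmB6D2 (-1.02).

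The 4 Igf2bp1 probe sets all read lower in FpB6CBA and OpB6D2 than in NmB6D2, by differences of -1.76 to -0.75 and -0.60 to -0.32. The largest, on 1449210_at, was -1.76 ± 0.116 for FpB6CBA minus NmB6D2 (SE, limma adjusted p = 5e-08). That probe set also differed in R1, which was at 8.65 ± 0.0471 against 9.64 ± 0.0934 in NmB6D2 (SD, n = 3 each), and OpB6D2 read 0.48 above R1 on it. The higher level of R1 over OpB6D2 was therefore shared by 3 of the 4 probe sets. With their mean, FpB6CBA minus NmB6D2 was -1.10 and passed 2-fold.

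Igf2bp3 (chromosome 6), its paralogue, was lowest in NmB6D2. It read 8.84, 8.88 and 8.62 in FpB6D2, 8.32, 8.27 and 8.20 in FpB6CBA, 8.61, 8.83 and 8.77 in OpB6D2, 8.80, 8.97 and 8.93 in R1, and 7.97, 8.03 and 8.04 in NmB6D2. FpB6D2, OpB6D2 and R1 overlapped, FpB6CBA lay below them and NmB6D2 below all.

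Igf2bp3 exceeded NmB6D2 by 0.89 ± 0.0786 (SE) in R1 (limma adjusted p = 2.1e-07), by 0.73 in OpB6D2 (limma adjusted p = 3.5e-06) and by 0.25 in FpB6CBA (limma adjusted p = 0.015). FpB6CBA differed from OpB6D2 by -0.47 (limma adjusted p = 0.00012) and from R1 by -0.64 (limma adjusted p = 4.9e-06), and OpB6D2 minus R1 was -0.17 (limma adjusted p = 0.086). None of the 6 pairs reached 2-fold, and 5 passed the adjusted p by limma, which was common over all genes. FpB6D2 was 0.77 above NmB6D2 and 0.51 above FpB6CBA. All 6 Igf2bp3 probe sets were higher in R1 and in OpB6D2 than in NmB6D2, by 0.41 to 1.00 and 0.24 to 0.78. For FpB6CBA minus NmB6D2 they split, 4 higher and 2 lower, between -0.18 and 0.61. The Igf2bp genes thus went in opposite directions in OpB6D2 against NmB6D2, Igf2bp1 with a negative and Igf2bp3 with a positive difference on every probe set.

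Trim71 (chromosome 9), an E3 ubiquitin ligase and mRNA-binding protein of early embryos, was highest in NmB6D2 on its first probe set. It read 8.30, 8.32 and 8.29 in FpB6D2, 7.90, 8.23 and 7.99 in FpB6CBA, 8.47, 8.70 and 8.67 in OpB6D2, 8.53, 8.54 and 8.74 in R1, and 9.15, 8.96 and 9.09 in NmB6D2. NmB6D2 stood above all others, OpB6D2 and R1 overlapped, and FpB6D2 and FpB6CBA lay below them.

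On this probe set FpB6CBA was below NmB6D2 by the only called Trim71 difference among the tested pairs, -1.02 ± 0.0917 (SE, limma adjusted p = 7.2e-07). It was 2.04-fold, and without replicate 1 of FpB6CBA it was -0.95, without its replicate 3 -0.9999, and without replicate 2 of NmB6D2 -0.98, all short of the 2-fold minimum. OpB6D2 and R1 differed from NmB6D2 by -0.45 (limma adjusted p = 0.00097) and -0.46 (limma adjusted p = 0.00054). FpB6CBA differed from OpB6D2 by -0.58 (limma adjusted p = 8.2e-05) and from R1 by -0.57 (limma adjusted p = 7e-05), and OpB6D2 minus R1 was 0.01 (limma adjusted p = 0.94). In FpB6D2 the difference from NmB6D2 was -0.76. On the second Trim71 probe set, 1456673_at, FpB6CBA was also lowest, with a difference of -0.69 from NmB6D2 (limma adjusted p = 0.00063) and -1.06 from R1 (limma adjusted p = 5.3e-06), whereas R1 was 0.37 above NmB6D2 (limma adjusted p = 0.025) and OpB6D2 0.08 above it (limma adjusted p = 0.64).

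**Figure D3:**
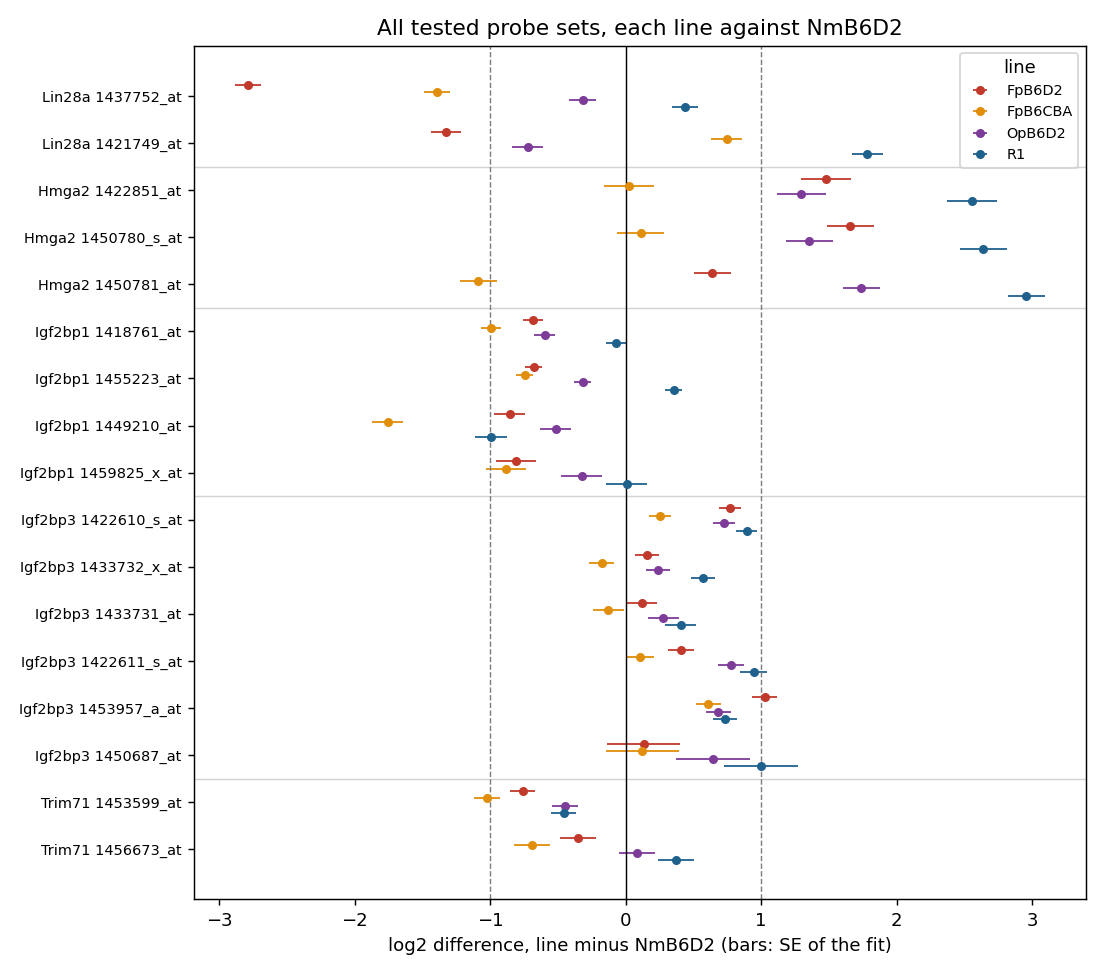
Log2 difference of each of the 17 tested probe sets of the group (rows, grouped by gene) in FpB6D2, FpB6CBA, OpB6D2 and R1, each minus NmB6D2, with standard errors from limma as bars and dashed lines at the 2-fold minimum. The Lin28a probe sets have opposite signs in FpB6CBA, -1.40 and 0.74, while the Hmga2 probe sets are all at 2.56 or more in R1.

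The group can be read against all genes in each pair of lines. For FpB6CBA minus NmB6D2, 2 of the 5 tested genes were called, both lower (Lin28a and Trim71), where 4.2% of all genes were called in either direction. For FpB6CBA minus OpB6D2 2 were called, both lower (Lin28a and Hmga2), against 10% of all genes, and for FpB6CBA minus R1 the same 2 genes were lower, against 18.2%. In OpB6D2 minus NmB6D2 1 was called, Hmga2, higher, against 5.84%. Hmga2 was also the 1 called gene, higher, in R1 minus NmB6D2, against 12.9%, and the 1 called gene, lower, in OpB6D2 minus R1, against 10.2%. Over the 30 gene and pair combinations tested, 9 were called by limma and 26 passed the adjusted p alone. Passing the adjusted p alone was common, with 6370 to 9017 of the 12813 genes doing so in each of the 10 pairs of lines. With so few genes tested, these counts do not set the group apart from the background. The median difference of the 5 genes was -0.99 for FpB6CBA minus NmB6D2, against 0.02 over all genes, and 0.44 for R1 minus NmB6D2, against -0.04.

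For FpB6D2 the threshold was passed by 2 genes against NmB6D2 (Hmga2 higher, Lin28a lower; 10.7% of all genes), 1 against OpB6D2 (Lin28a lower; 3.75%), 2 against FpB6CBA (Hmga2 higher, Lin28a lower; 11.2%) and 2 against R1 (both lower; 13.3%). These comparisons led to the choice of the genes, and nothing is read from the counts. All 10 pairs of lines share arrays with others, so the pairs are not independent.

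When the line was taken as the replicate, the 3 parthenogenetic lines were set beside the 2 fertilised lines on their line means. Since FpB6D2 is 1 of the parthenogenetic lines, the values of these genes are a description. Igf2bp1 averaged 9.63 in the parthenogenetic and 10.35 in the fertilised lines, a difference of -0.72 ± 0.195 (SE). Lin28a averaged 8.37 and 10.09, a difference of -1.72 ± 0.723 (SE). The difference was -0.34 for Hmga2, 0.14 for Igf2bp3 and -0.52 for Trim71. Over the whole array limma called 0 of 12813 genes (0%), with 606 at an unadjusted p under 0.05. On their first probe sets, all 3 parthenogenetic lines were below both fertilised lines for Igf2bp1 and Lin28a. The share of all genes that separate the lines in this way was not counted, so nothing is read from it. On the Igf2bp1 probe set 1449210_at the lines did not separate, with 8.78 in FpB6D2, 7.88 in FpB6CBA and 9.12 in OpB6D2, against 8.65 in R1 and 9.64 in NmB6D2. Nor did they on the Lin28a probe set 1421749_at, where FpB6CBA (7.76) was above NmB6D2 (7.02).

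Of the genes that process let-7 or act with Lin28, 19 were listed and 18 tested. In each of the 6 pairs without FpB6D2 at most 1 was higher and at most 1 lower, while 4.2% to 18.2% of all genes were called in these pairs, so the list was not set apart from the background. Ago2, the slicing Argonaute of the silencing complex, was lower in OpB6D2 (8.09) than in NmB6D2 (9.64), by -1.55 ± 0.0991 (SE, limma adjusted p = 1.9e-08), and lower in R1, by -1.09 (limma adjusted p = 3e-07). It was higher in FpB6CBA than in OpB6D2, by 1.07 (limma adjusted p = 4.7e-07). Dgcr8, which pairs with Drosha to cut primary microRNAs, was higher in R1 than in NmB6D2, by 1.11 (limma adjusted p = 1e-07). In FpB6CBA it was lower than in OpB6D2, by -1.16 (limma adjusted p = 9e-08), and lower than in R1, by -1.89 (limma adjusted p = 2.8e-10). Prkra, a partner of Dicer1, was lower in OpB6D2 than in R1, by -1.28 (limma adjusted p = 1.1e-08). For FpB6CBA minus NmB6D2 none of the 18 was called by limma.

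In FpB6D2 Tut4, a uridylyl transferase that Lin28a recruits, was at 7.81, against 8.82 in R1 and 8.78 in NmB6D2. Msi1, an RNA-binding protein that works with Lin28a in let-7 processing, was at 4.89 in FpB6D2, against 6.26 in R1 and 5.92 in NmB6D2. Ago2 was at 8.54 in FpB6D2 and 9.64 in NmB6D2. The threshold was passed by 0 genes of the list above and 2 below NmB6D2, by 0 against OpB6D2, by 1 above FpB6CBA (Dgcr8, 1.67) and by 3 below R1 (Msi1, Prkra and Tut4). Over all genes 3.75% to 13.3% passed it in the pairs with FpB6D2. Of the genes that host let-7 precursors, Wdr82 and Huwe1 were tested and neither was called in any pair; the largest difference among the tested pairs was 0.94 for Huwe1, higher in OpB6D2 than in R1 (limma adjusted p = 6.4e-05).

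Other let-7 target genes were counted from a list of 34, of which 30 were on the array and 29 tested. R1 minus NmB6D2 had 6 higher and 1 lower, where 12.9% of all genes were called. Cdk6, a cyclin-dependent kinase of the G1 phase, was at 7.14 in R1 and 4.80 in NmB6D2, a difference of 2.34 ± 0.138 (SE, limma adjusted p = 3.5e-09). Thbs1, an adhesion glycoprotein, was higher by 1.22 (limma adjusted p = 8.5e-06), Ccnd2, a D-type cyclin, by 1.10 (limma adjusted p = 7.4e-09) and Tgfbr1, a TGF-beta receptor, by 1.09 (limma adjusted p = 2.7e-07). The median of the list was 0.18 in this pair, against -0.04 over all genes.

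OpB6D2 minus NmB6D2 had 1 higher, Thbs1 (1.03, limma adjusted p = 7.2e-05), and 1 lower, Prtg (-2.27, limma adjusted p = 4.9e-07), with 5.84% of all genes called. Prtg encodes protogenin, a cell-surface receptor of early embryos. Its line means were 5.57 in FpB6D2, 6.59 in FpB6CBA, 6.48 in OpB6D2, 9.38 in R1 and 8.75 in NmB6D2, so the means of both fertilised lines were above those of all 3 parthenogenetic lines. The share of all genes split in this way was not counted. FpB6CBA minus NmB6D2 had 0 higher and 2 lower, Myc (-2.30, limma adjusted p = 3.6e-12) and Prtg (-2.16, limma adjusted p = 1e-06), with 4.2% of all genes called. The proto-oncogene Myc averaged 5.10 in FpB6CBA and 7.40 to 7.90 in the other 4 lines.

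FpB6CBA minus OpB6D2 had 0 higher and 2 lower, Myc (-2.51, limma adjusted p = 9.5e-13) and Thbs1 (-1.48, limma adjusted p = 1.4e-06), with 10% of all genes called. OpB6D2 minus R1 had 0 higher and 3 lower, Prtg (-2.89, limma adjusted p = 2.2e-08), Cdk6 (-1.75, limma adjusted p = 8.8e-08) and Bach1 (-1.23, limma adjusted p = 4.7e-09), with 10.2% of all genes called. FpB6CBA minus R1 had 0 higher and 6 lower, led by Myc (-2.80), Prtg (-2.78), Cdk6 (-2.36) and Thbs1 (-1.66), with 18.2% of all genes called. In FpB6D2 the threshold was passed by 3 genes below NmB6D2, Prtg (-3.18), Nr6a1 (-1.12) and Igf1r (-1.08), and by none above it. It was passed by 0 against OpB6D2, by 1 above (Myc, 2.43) and 1 below (Prtg, -1.02) FpB6CBA, and by 5 below R1, led by Prtg (-3.81) and Cdk6 (-2.06). Over all genes 3.75% to 13.3% passed it in the pairs with FpB6D2. The list's median in FpB6D2 minus NmB6D2 was -0.01, against 0.02 over all genes.

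**Figure D4:**
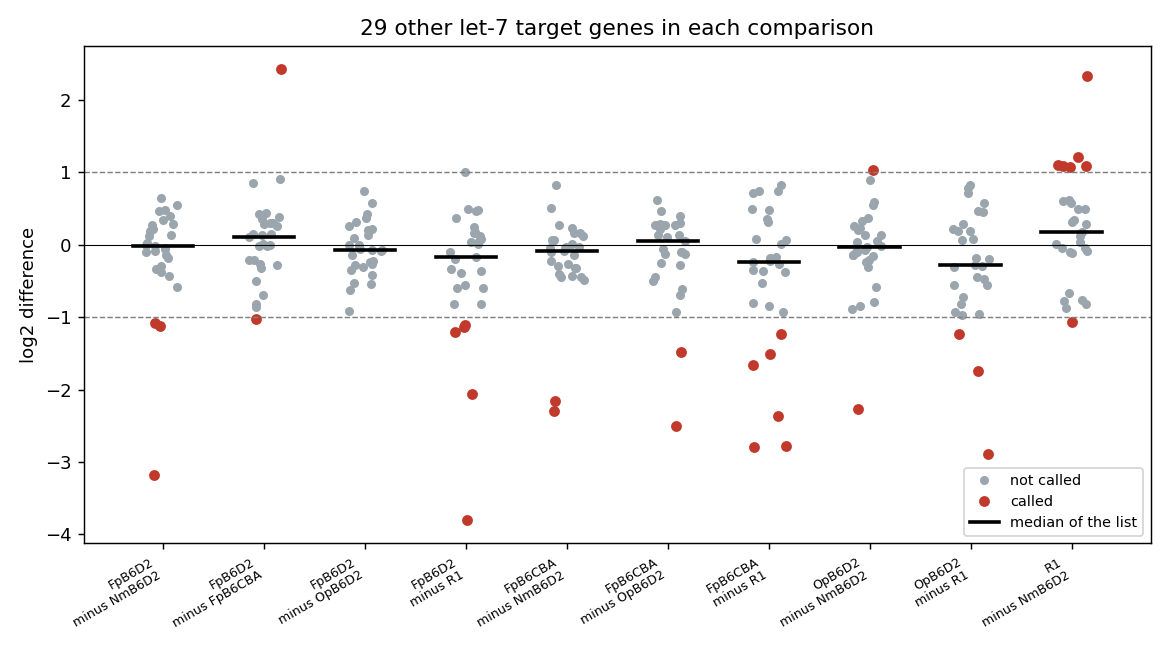
Log2 differences (vertical axis) of the 29 tested let-7 target genes outside the group in each of the 10 pairs of lines (horizontal axis), 1 point per gene, with called genes in red, a black bar at the list's median and dashed lines at the 2-fold minimum. Most points lie within 2-fold; R1 minus NmB6D2 has 6 called genes above 0 and 1 below it, and FpB6D2 minus OpB6D2 has none.

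The genes whose levels were most like those of the first Lin28a probe set over the 15 arrays were ranked. The ranking covered 4071 tested genes with line means at least 2-fold apart. The second Lin28a probe set, which placed the lines in another order, was not used for it. Pearson's r was 0.981 for Zfc3h1, 0.979 for Lpp, 0.976 for Nr2f6, 0.976 for Ivns1abp and 0.971 for Srsf9. It was -0.982 for Rnf13, -0.974 for Guca1a and -0.974 for Anxa8. Lpp, a focal adhesion protein, averaged 6.13 in FpB6D2, 7.22 in FpB6CBA, 7.99 in OpB6D2, 8.74 in R1 and 8.37 in NmB6D2. That was the order of the first Lin28a probe set. Anxa8, an annexin, averaged 7.64 in FpB6D2, 6.88 in FpB6CBA, 6.23 in OpB6D2, 5.79 in R1 and 5.71 in NmB6D2. The arrays fall into 5 lines, so each r rests on 5 levels more than on 15 points, and it describes likeness only.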

How the data were processed

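The values were log2 intensities deposited by the authors, 1 per probe set and array, made with RMA in the affy package per the submitters' processing notes (no version given). The log base was inferred from the range, 1.99 to 13.96. RMA removes background, quantile-normalises arrays and summarises probes, so it evens out overall shifts between arrays. Symbols came from the platform annotation: 34945 probe sets had 1 symbol, 932 several and 9160 none, and 64 were controls. The 5 line means were compared in 10 pairs with limma 3.58.1 in R 4.3.3 (lmFit, contrasts.fit, eBayes), with Benjamini-Hochberg adjustment over 12813 genes, and again over 24524 probe sets. The fit was tested on simulated data. The member genes and all gene lists were chosen with earlier results of these data known. Named from each list are up to 4 called genes with the largest difference per pair, or up to 2 measured genes where none was called. Further genes are named where they differed from the rest of their list. Named as like Lin28a are the 5 highest and 3 lowest correlations with its first probe set. Alternatives covered the filter, probe set choice, normalisation, variance model, array weights, samples fitted, replicate block, fold minimum and leaving out arrays. Signal over background and 3 arrays per line limit the precision.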

Additional observations from a re-analysis of the deposited data

How the results depend on the processing

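Of the 30 tested gene differences, refitted under each alternative, 765 values kept direction and call, 6 lost the call, 8 gained it and 1 reversed. Many refits leave the difference itself unchanged by construction, such as those without an array of a line outside the pair or with another variance model. The 765 therefore does not measure stability. The reversal was Lin28a in FpB6CBA minus OpB6D2, 0.20 with the mean of all probe sets, against -1.08 with the highest one, since the 2 probe sets differ in sign. With the mean of all probe sets the members called became 1 for FpB6CBA minus NmB6D2, 1 for FpB6CBA minus OpB6D2, 1 for FpB6D2 minus NmB6D2 and 2 for R1 minus NmB6D2. With a 1.5-fold minimum they were 4 for FpB6CBA minus R1, 5 for FpB6D2 minus NmB6D2, 3 for OpB6D2 minus NmB6D2, 2 for OpB6D2 minus R1 and 2 for R1 minus NmB6D2. With no fold minimum they were 4 for FpB6CBA minus NmB6D2, 5 for FpB6CBA minus OpB6D2, 5 for FpB6CBA minus R1, 5 for FpB6D2 minus FpB6CBA, 5 for FpB6D2 minus NmB6D2, 2 for FpB6D2 minus OpB6D2, 4 for FpB6D2 minus R1, 5 for OpB6D2 minus NmB6D2, 3 for OpB6D2 minus R1 and 4 for R1 minus NmB6D2; the number of genes called rose by construction, to 1903 to 4767 at 1.5-fold and 6370 to 9017 with no minimum, against 480 to 2334 at 2-fold. With the mean of all probe sets, genes called in FpB6D2 minus OpB6D2 were 299, against 480. Leaving out each array in turn gave 1 to 3 members called for FpB6CBA minus NmB6D2, with 1 without replicate 3 of FpB6CBA or replicate 2 of NmB6D2, where Trim71 was short of 2-fold; the other 9 pairs kept their counts. Counts of members called moved under no filter, normalisation, variance or weighting alternative. The deposited values were already quantile-normalised, so the normalisation alternatives could change little. The parthenogenetic minus fertilised contrast, a description here, had 0 members past the threshold under every alternative run. Same-numbered arrays of different lines deviated together in 1 of 12 pairs (r over 0.1, range -0.181 to 0.127). Pairs of arrays with different numbers reached 0.136. These values gave no sign that the numbers pair the arrays, but they cannot exclude it. With the replicate block, Igf2bp1 passed 2-fold in FpB6CBA minus NmB6D2 (-1.12) and FpB6CBA minus R1 (-1.07), which brought each to 3 members called, and the other 8 pairs kept their counts. The numbered titles cover 13 of the 15 arrays. The level of Lin28b, below the filter on every array, is limited by signal over background.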

Other observations

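Of the markers of other cell types, 12 trophectoderm genes were tested, and in OpB6D2 minus NmB6D2 0 were higher and 6 lower, with a median difference of -1.33. Over all genes 5.84% were called in that pair. In FpB6CBA minus OpB6D2 5 were higher and 0 lower, against 10% of all genes called. Of 10 neural progenitor genes 5 were tested, and in no pair of the 4 lines other than FpB6D2 were more than 2 called in 1 direction. Over all genes 4.2% to 18.2% were called in these pairs. Of 12 pluripotency markers, 4 were past the threshold above and 0 below FpB6CBA in FpB6D2, the line with the lowest Lin28a. Over all genes 11.2% were past it in that pair.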
